A study of Mus musculus with 20 samples.

Results

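The genes described here are regulators of mitochondrial biogenesis and of the copying and transcription of mitochondrial DNA. They were taken from a list of 10 regulators chosen by function, with earlier results of these data known: Nrf1, Gabpa, Ppargc1a, Ppargc1b, Esrra, Tfam, Tfb2m, Polrmt, Polg and Twnk. The gene identifiers of the deposited table were matched to GENCODE mouse symbols, and 6 of the 10 listed genes were analysed among 17651 genes in all: Nrf1, Gabpa, Ppargc1b, Esrra, Polrmt and Twnk. Ppargc1a, Tfam, Tfb2m and Polg were not analysed here.

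RNA of whole ovaries of wild-type mice was sequenced, with 5 groups of 4 libraries and 20 libraries in all. These were young mice of 7 to 8 weeks, adult mice of 27 to 28 weeks given HEP14, adult mice of the same age without it, aged mice of 73 to 74 weeks given HEP14, and aged mice of the same age given vehicle, which are called aged below. HEP14 is a small molecule known as an activator of protein kinase C that promotes the formation of lysosomes, and no label states its dose or duration. The adult HEP14 group is known from the sample titles alone, and no label says that the libraries of a group came from separate mice, so the p-values measure the spread between these libraries, which may be technical. Each deposited value is a score that says how many standard deviations (SD) a gene lay above or below its own mean over the 20 libraries. Differences below are in such SD units and not fold changes. They say nothing of how abundant an RNA was, and the sequencing depth behind the scores is unknown.

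Nuclear genes encode nearly all proteins of the mitochondrion, while the small circular mitochondrial genome encodes a few subunits of the respiratory chain and the RNAs needed to translate them. NRF1 and GABP (also called NRF2) are transcription factors that bind the promoters of many nuclear genes for respiratory chain subunits and for the mitochondrial transcription machinery. The coactivators PGC-1α and PGC-1β, encoded by Ppargc1a and Ppargc1b, bind such factors and the orphan nuclear receptor ERRα, encoded by Esrra, and raise the output of the programme. Inside the organelle, POLRMT is the RNA polymerase that reads mitochondrial DNA, with TFAM and TFB2M as its initiation factors, and its short transcripts also prime copying of the DNA. TWNK (Twinkle) is the helicase that opens the double strand for the DNA polymerase POLG. The oocyte holds an exceptionally large store of mitochondrial DNA, and ovarian steroid synthesis starts inside mitochondria.

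The start regions of 4 of these genes are shown because the programme is known to run through them: NRF1 and GABP sites lie near the starts of many of its genes. Each sequence is the 100 bases before the annotated start in RefSeq (GRCm38.p6), on the strand of the gene and from 5′ to 3′. Capitals mark the GABP motif CCGGAAG or its reverse complement CTTCCGG where a search found it.
Nrf1, chr6:30047888-30047987, plus strand: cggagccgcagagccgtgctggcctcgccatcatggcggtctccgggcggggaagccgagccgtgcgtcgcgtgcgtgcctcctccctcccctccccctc
Gabpa, chr16:84835024-84835123, plus strand: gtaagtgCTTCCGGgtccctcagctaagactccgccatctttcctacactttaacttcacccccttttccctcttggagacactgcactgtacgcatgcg
Esrra, chr19:6921809-6921908, minus strand: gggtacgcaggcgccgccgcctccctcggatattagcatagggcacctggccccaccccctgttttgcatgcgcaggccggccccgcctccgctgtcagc
Polrmt, chr10:79746582-79746681, minus strand: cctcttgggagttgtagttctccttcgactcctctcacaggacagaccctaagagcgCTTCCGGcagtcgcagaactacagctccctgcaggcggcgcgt
In Polrmt the match lay 43 to 37 bases before the start, and in Gabpa, the DNA-binding subunit of GABP itself, 93 to 87 bases before it. The search covered 250 bases before each start on both strands, and 6.91% of 32851 promoters held the GABP motif. The NRF1 motif was found in 3.74% of promoters and the ERR motif AAGGTCA in 4.08%. Neither was found as an exact match in the windows of Nrf1, Gabpa, Esrra or Polrmt. Stretches that differ from a motif by a letter or more were not counted. The search therefore does not exclude sites close to the NRF1 motif in these windows. Twnk held AAGGTCA 123 to 117 bases before the first of its annotated starts, and the GABP motif at 2 places before the second. A match describes letters and does not show that a factor binds there.

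The 4 aged libraries did not lie with the rest. Along the main axis of a principal component analysis they sat between 135 and 200, against -39.3 to -9.58 for the aged HEP14 libraries. Between 1956 and 3697 genes sat at their lowest value, shared with another library, in an aged library, against 854 to 1117 in an aged HEP14 library and 791 to 936 in a young one. The median score over all genes was -0.62, -0.58, -0.28 and -0.31 in the 4 aged libraries, and the within-group SD of a typical gene was 0.87 in the aged group against 0.28 in the young group. The whole table moved with it: aged against young, the share of genes called was 33% higher and 41.3% lower, with a median difference of -0.41 SD. That is 5833 genes upward and 7286 downward, while equal library medians gave 6574 upward and 6313 downward. A call is an adjusted p under 0.05 in the limma test across all genes. Markers of other cell types moved too. Of 12 oocyte markers, 12 were lower in aged than in young ovaries, with a mean score of -1.98 to -0.65 in aged libraries and 0.82 to 1.45 in young ones. Of 7 T and NK cell markers, 7 were higher, with a mean score of 0.42 to 2.53 in aged libraries and -1.27 to -0.95 in young ones. Of 7 stroma markers, 7 were lower, at -2.15 to -0.34 in aged libraries and 0.88 to 1.52 in young ones. Of 9 luteal and theca markers 7 were higher, of 7 granulosa markers 3 were lower, of 7 fat markers 6 were lower, of 6 smooth muscle markers 4 were lower, and of 6 striated muscle markers 2 were higher and 1 lower. The part of these shifts in the results below was not tested, and in whole tissue fewer cells of a type cannot be told apart from less RNA per cell.

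Aged against young, 5 of the 6 regulators changed: Nrf1, Ppargc1b, Esrra and Polrmt were higher and Gabpa was lower. Twnk did not pass the test. The share called over all genes was 74.3% in this comparison, so the regulators' count is near that background. For 4 of the 6 the aged libraries lay all above or all below the young ones, beside 60.1% of all genes without overlap in this sense. Setting the medians of all libraries equal gave 4 higher and 1 lower, and a fit with 1 variance per group called the same 5 (adjusted p = 1.78e-05 to 0.04, limma). With aged libraries 1 and 2 left out, a choice made after the data were seen, Ppargc1b lost its call and Twnk gained one.

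**Figure D1:**
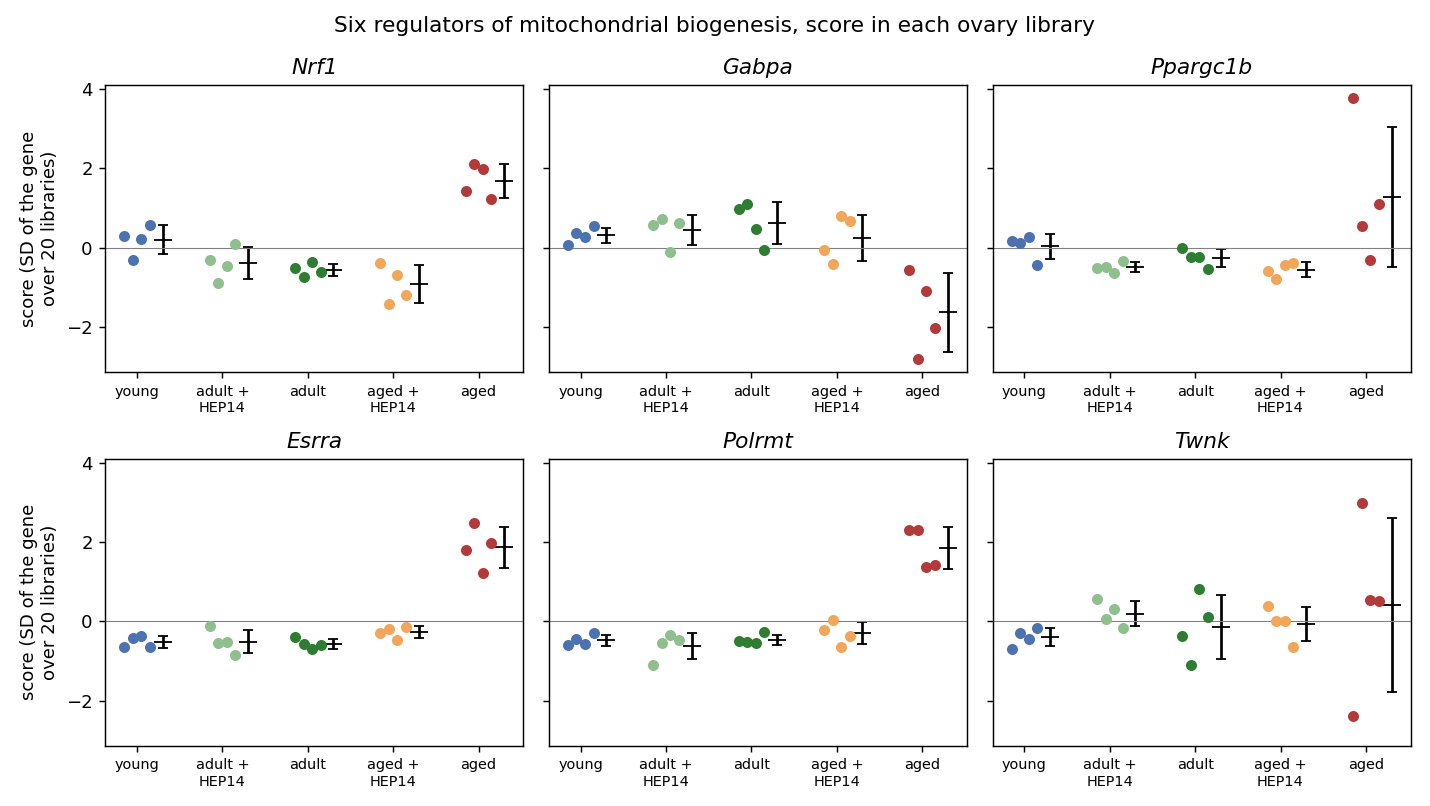
Scores of the 6 regulators in each of the 20 libraries (y axis, score in SD of the gene; x axis, the 5 groups; points, libraries; black bars, mean ± SD of the 4 libraries of a group). Esrra and Polrmt are above 1.2 in every aged library and below 0.1 in all 16 others, Gabpa is lowest in aged libraries, and Twnk runs from -2.39 to 2.98 within the aged group.

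Nrf1 (chr6:30047988-30153458, plus strand, GRCm38) encodes the factor NRF1. Its scores were 1.43, 2.11, 1.98 and 1.22 in the aged libraries, against 0.30, -0.30, 0.21 and 0.57 in the young libraries and -0.52, -0.74, -0.37 and -0.62 in the adult libraries. All 4 aged libraries lay above every library of the other groups. The difference was 1.49 SD aged against young (SE 0.32, adjusted p = 0.000332, limma) and 2.25 SD aged against adult (adjusted p = 5.29e-06).

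Gabpa (chr16:84834925-84863779, plus strand) moved the other way. Its scores were -0.56, -2.81, -1.11 and -2.04 in the aged libraries, against 0.08, 0.37, 0.27 and 0.54 in the young libraries and 0.99, 1.10, 0.46 and -0.05 in the adult libraries. Every aged library lay below every other library. The difference was -1.94 SD aged against young (SE 0.42, adjusted p = 0.000396, limma) and -2.25 SD aged against adult (adjusted p = 0.000107). Gabpa and Atp5j, on the opposite strand, share 397 exonic bases, which is 6.98% of the exonic bases of Gabpa. The strand setting of the counting is not given in the sources used here, so reads in that stretch cannot be told apart. Atp5j itself differed by 0.36 SD (adjusted p = 0.638, limma).

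Esrra (chr19:6910977-6921813, minus strand), the gene of ERRα, had scores of 1.81, 2.47, 1.23 and 1.98 in the aged libraries, against -0.65, -0.42, -0.36 and -0.65 in the young libraries and -0.40, -0.57, -0.71 and -0.60 in the adult libraries. The aged libraries lay far above the rest, and young and adult libraries overlapped. Esrra was higher by 2.39 SD aged against young (SE 0.28, adjusted p = 4.5e-07, limma) and by 2.44 SD aged against adult (adjusted p = 7.99e-07). It shares 73 exonic bases, 1.66% of its own, with Trmt112 on the opposite strand, which was higher by 1.15 SD aged against young (adjusted p = 0.0324, limma).

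Ppargc1b (chr18:61298136-61400431, minus strand), the gene of PGC-1β, had scores of 3.78, 0.55, -0.31 and 1.11 in the aged libraries, against 0.17, 0.11, 0.27 and -0.44 in the young libraries and -0.00, -0.25, -0.25 and -0.54 in the adult libraries. Aged libraries 1, 2 and 4 lay above all young libraries and aged library 3 lay among them. The difference of 1.25 SD aged against young passed narrowly (SE 0.54, adjusted p = 0.0416, limma) and rested on aged library 1. Without that library it was 0.42 SD (adjusted p = 0.21). A fit on the aged and young libraries alone gave an adjusted p of 0.191, and the call was also lost without any 1 of the 4 young libraries and without aged library 4 (adjusted p = 0.0525 to 0.101).

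Polrmt (chr10:79736123-79746581, minus strand), the gene of the mitochondrial RNA polymerase, had scores of 2.31, 2.32, 1.38 and 1.43 in the aged libraries, against -0.60, -0.46, -0.57 and -0.29 in the young libraries and -0.49, -0.53, -0.55 and -0.27 in the adult libraries. Aged libraries did not overlap with those of any other group, and young and adult means differed by 0.02 SD (SE 0.29). Polrmt was higher by 2.34 SD aged against young (SE 0.29, adjusted p = 8.73e-07, limma) and by 2.32 SD aged against adult (adjusted p = 1.56e-06).

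Twnk (chr19:45005663-45012762, plus strand), the gene of the Twinkle helicase, had scores of -2.39, 2.98, 0.54 and 0.52 in the aged libraries, against -0.69, -0.30, -0.44 and -0.17 in the young libraries and -0.37, -1.10, 0.81 and 0.10 in the adult libraries. Both the lowest and the highest Twnk value of the series came from aged libraries. The difference aged against young was 0.82 SD (SE 0.69, adjusted p = 0.289, limma). Without aged library 1 it was 1.75 SD and passed the test (adjusted p = 0.00471), and without aged library 2 it was -0.04 SD (adjusted p = 0.954), so these libraries decide its value. Twnk shares 507 exonic bases, 12.63% of its own, with Mrpl43 on the opposite strand, which was not analysed here.

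Aged against adult, the same 4 regulators were called higher and Gabpa lower, where the share of all genes called was 66.8%, with 31.1% higher and 35.7% lower. For 4 of the 6 there was no overlap of libraries, against 49.6% of all genes. Ppargc1b differed by 1.54 SD there (adjusted p = 0.0162, limma), which was lost in a fit on the aged and adult libraries alone (adjusted p = 0.13). Without aged library 1 it was 0.71 SD (adjusted p = 0.0434), and without any other single library 1.45 to 2.07 SD. Both age comparisons share the aged libraries.

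Adult against young, no regulator was called, against 9.92% of all genes (2.75% higher and 7.17% lower), and 1 had an unadjusted p under 0.05 in the limma test. That gene was Nrf1, singled out after its values were seen, whose adult libraries all lay below the young ones, with a difference of -0.76 SD (SE 0.32, adjusted p = 0.126, limma). It passed in a fit on the adult and young libraries alone (adjusted p = 0.0399) and with 1 variance per group (adjusted p = 0.0308). Over all genes 28.3% did not overlap between adult and young. The other differences lay between -0.29 SD for Ppargc1b and 0.31 SD for Gabpa. By group means over the 3 ages, Nrf1 was 0.20 ± 0.37 in young, -0.56 ± 0.16 in adult and 1.68 ± 0.43 in aged ovaries (SD, n = 4 each).

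**Figure D2:**
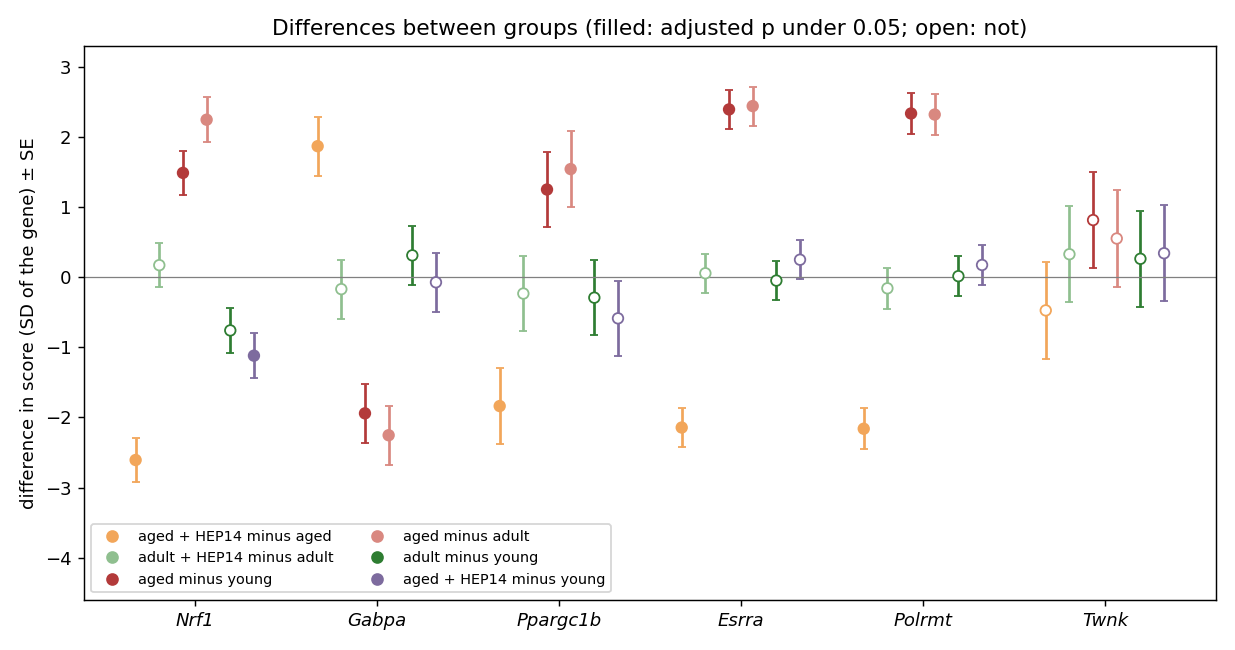
Difference in score for each regulator (x axis) in 6 comparisons (y axis, SD of the gene; points, differences; bars, ± SE; filled points, adjusted p under 0.05). Nrf1, Esrra and Polrmt lie at 1.49 to 2.39 SD aged minus young and at -2.61 to -2.14 SD aged HEP14 minus aged, while Gabpa lies at -1.94 and 1.87 SD.

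Given HEP14, aged ovaries differed from aged ovaries given vehicle in 5 of the 6 regulators: Nrf1, Ppargc1b, Esrra and Polrmt were lower and Gabpa was higher. Over all genes 62.5% passed, 33.2% higher (5859 genes) and 29.3% lower (5172 genes). With the library medians set equal that balance reversed, to 4639 higher and 5965 lower. For 5 of the 6 regulators the libraries of the 2 groups did not overlap, against 46.4% of all genes. This comparison and aged against young share the aged libraries, so opposite signs in them are not independent of each other. The same 5 were called with aged libraries 1 and 2 left out and with 1 variance per group.

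Nrf1 had scores of -0.38, -1.43, -0.68 and -1.20 in aged HEP14 libraries, which lie below all aged libraries. The difference from aged was -2.61 SD (SE 0.32, adjusted p = 2.61e-06, limma). Esrra had scores of -0.28, -0.19, -0.47 and -0.14 in aged HEP14 libraries, and its difference from aged was -2.14 SD (SE 0.28, adjusted p = 3.82e-06, limma). Polrmt had scores of -0.22, 0.02, -0.65 and -0.36 there, with a difference of -2.16 SD (SE 0.29, adjusted p = 4.87e-06, limma). For both genes all 4 treated libraries lay below the aged ones. Esrra in aged HEP14 libraries 1, 2 and 4 lay above every young and adult library, and in library 3 within their range. Polrmt in aged HEP14 libraries 1 and 2 also lay above every young and adult library. In aged HEP14 library 4 Polrmt lay within their range, and in library 3 below that range.

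Gabpa had scores of -0.06, -0.42, 0.79 and 0.66 in aged HEP14 libraries, all above the aged ones. The difference was 1.87 SD (SE 0.42, adjusted p = 0.000758, limma). Ppargc1b had scores of -0.58, -0.80, -0.45 and -0.39 in aged HEP14 libraries, below the lowest aged library at -0.31. Its difference was -1.84 SD (SE 0.54, adjusted p = 0.00591, limma). It was not called in a fit on these 2 groups alone (adjusted p = 0.0819), was -1.005 SD without aged library 1 (adjusted p = 0.00705), and was -0.95 SD with aged libraries 1 and 2 left out (adjusted p = 0.0184). Twnk had scores of 0.40, -0.00, -0.00 and -0.64 in aged HEP14 libraries, inside the range of the aged ones, with a difference of -0.47 SD (SE 0.69, adjusted p = 0.562, limma). Without aged library 1 that became -1.41 SD (adjusted p = 0.022).

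Markers of other cells moved with HEP14 in aged ovaries as well. Of 12 oocyte markers 9 were higher, with mean scores of -0.73 to 0.45 in aged HEP14 libraries and -1.98 to -0.65 in aged libraries. Of 7 T and NK cell markers 6 were lower, at -0.10 to 0.10 in aged HEP14 libraries and 0.42 to 2.53 in aged libraries. Granulosa markers were higher for 5 of 7, luteal and theca markers for 3 of 9 and stroma markers for 3 of 7. No fat or smooth muscle marker was called, and of 6 striated muscle markers 1 was higher and 4 lower. Over all genes 33.2% were called higher and 29.3% lower in this comparison. The part of these marker shifts in the regulators' differences was not tested.

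In adult ovaries HEP14 moved no regulator past the test, and none had an unadjusted p under 0.05 (limma), beside 0.00567% of all genes called, which is 1 gene. The differences ran from -0.23 SD for Ppargc1b to 0.33 SD for Twnk. Nrf1 had scores of -0.32, -0.89, -0.45 and 0.10 in adult HEP14 libraries and differed by 0.17 SD. Gabpa had 0.57, 0.73, -0.11 and 0.63 there and differed by -0.17 SD. Both overlapped with the adult libraries. Ppargc1b had -0.51, -0.48, -0.64 and -0.34 in adult HEP14 libraries. Esrra had -0.13, -0.54, -0.53 and -0.86 there, Polrmt had -1.11, -0.54, -0.36 and -0.47, and Twnk had 0.56, 0.07, 0.31 and -0.18. Each of these ranges overlapped with that of the adult libraries. The effect of HEP14 differed between aged and adult ovaries for 4 of the 6 regulators, 1 higher and 3 lower, against 47.3% of all genes, 24.9% higher and 22.4% lower. The effect in aged minus the effect in adult was -2.78 SD for Nrf1 (SE 0.45, adjusted p = 0.000269, limma), -2.20 SD for Esrra (adjusted p = 0.00036), -2.00 SD for Polrmt (adjusted p = 0.00079) and 2.04 SD for Gabpa (adjusted p = 0.00894). For Ppargc1b it was -1.61 SD (adjusted p = 0.0881) and for Twnk -0.80 SD (adjusted p = 0.514).

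Set against young ovaries, aged HEP14 ovaries differed in 1 of the 6 regulators, with 15.9% of all genes called, 5.38% higher and 10.5% lower. Nrf1 was lower, at -0.92 ± 0.48 in aged HEP14 and 0.20 ± 0.37 in young ovaries (SD, n = 4 each), a difference of -1.12 SD (SE 0.32, adjusted p = 0.0214, limma). The aged HEP14 libraries all lay below the young ones, as for 33.2% of all genes. The call was lost without any 1 of young libraries 1, 3 and 4 or aged HEP14 libraries 2 and 4 (adjusted p = 0.0511 to 0.0805). Esrra differed by 0.25 SD, Polrmt by 0.17 SD, Gabpa by -0.07 SD, Ppargc1b by -0.59 SD and Twnk by 0.34 SD, with none past the test.

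All analysed RNAs of the mitochondrial genome, which POLRMT makes, were called higher aged against young, apart from 2 tRNAs. Of the 13 mitochondrially encoded mRNAs, 13 were called higher aged against young, with a median difference of 2.65 SD and a range of 1.25 to 2.78 SD, and 13 were called lower aged HEP14 against aged, with a median of -2.08 SD. Both rRNAs, the 12S rRNA mt-Rnr1 and the 16S rRNA mt-Rnr2, went the same way, by 2.61 and 2.57 SD aged against young and both by -2.10 SD with HEP14. Of 16 mitochondrial tRNAs among the 22 listed, 14 were called higher and 1 lower aged against young, and 14 were called lower with HEP14. mt-Tr did not pass aged against young, at 1.13 SD (adjusted p = 0.0639, limma), and was named after its values were seen. The lower one was mt-Tg, named after its values were seen, at -1.89 SD (adjusted p = 0.000126, limma). It was also lower than young in adult (-2.15 SD) and aged HEP14 ovaries (-2.31 SD), and aged against adult it differed by 0.26 SD (adjusted p = 0.541, limma). Every adult HEP14 and aged HEP14 library held mt-Tg at the same score, -0.58, which appears to be its shared lowest value. Its mean was 1.73 ± 0.61 in young, -0.42 ± 0.32 in adult and -0.16 ± 0.84 in aged ovaries (SD, n = 4 each). The differences of mt-Tg thus rest on values near a floor outside the young group. Over all genes 33% were called higher aged against young and 29.3% lower aged HEP14 against aged.

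**Figure D3:**
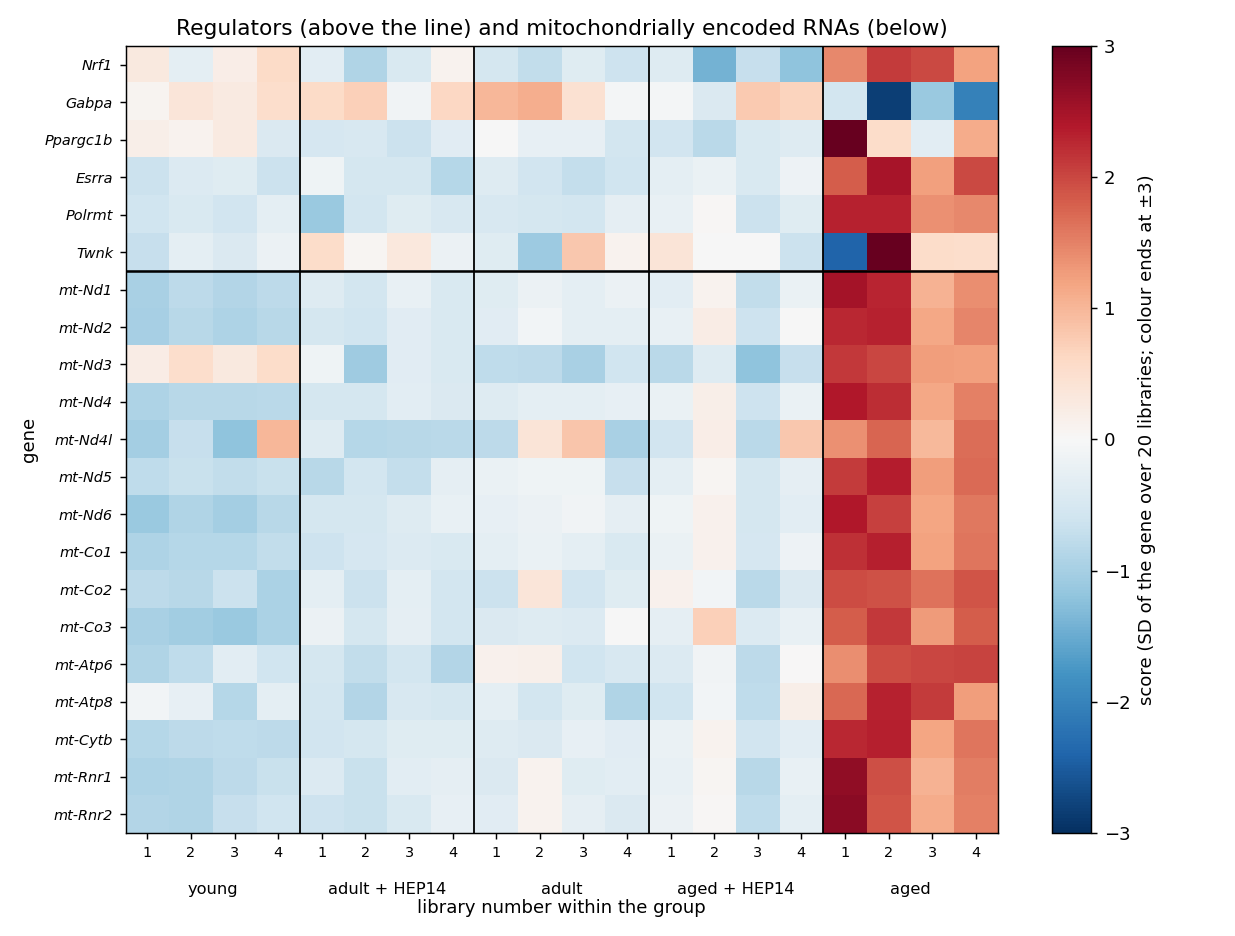
Scores (colour, SD of the gene, ending at 3 on either side) of the 6 regulators above the line and of the 13 mRNAs and 2 rRNAs of the mitochondrial genome below it (rows), in 20 libraries by group (columns). The 4 aged columns are red for all 15 mitochondrial RNAs and for Nrf1, Esrra and Polrmt, blue for Gabpa, and mixed for Ppargc1b and Twnk.

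The mean score of the 13 mRNAs was 2.04, 2.15, 1.34 and 1.60 in the aged libraries, against -0.31, 0.09, -0.68 and -0.14 in the aged HEP14 libraries and -0.78, -0.67, -0.76 and -0.51 in the young libraries. Adult HEP14 libraries stood at -0.66 to -0.43 and adult libraries at -0.45 to -0.18. Aged libraries 1 and 2 were the highest here and for Polrmt. The same libraries had the most genes at a shared lowest value, 3697 and 3589, and whether that bears on either was not tested.

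Counts for genes on both strands of the mitochondrial genome showed the difference. mt-Nd6, the mRNA read from the light strand and a subunit of complex I, was higher by 2.77 SD aged against young. The strand setting of the counting is not given, so opposite-strand reads over mt-Nd6 cannot be told apart from its own. Of the heavy-strand mRNAs, mt-Co1 for complex IV was higher by 2.68 SD, mt-Cytb for complex III by 2.65 SD, mt-Nd1 for complex I by 2.65 SD and mt-Atp6 for ATP synthase by 2.49 SD. With HEP14 in aged ovaries these 5 differed by -2.16 to -2.01 SD. Nuclear copies of mitochondrial sequence can share such reads, and how those were counted is not given in the sources used here.

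Adult against young, 1 of the 13 mRNAs was called, beside 9.92% of all genes, and the median difference was 0.50 SD. For 9 of the 13 the adult and young libraries did not overlap, beside 28.3% of all genes. Fits on these 2 groups alone and with 1 variance per group each called 7. It was mt-Nd3 at -1.18 SD (adjusted p = 0.0184, limma), named after its values were seen. Its scores were -0.76, -0.78, -0.97 and -0.60 in adult libraries, all below the young ones at 0.23, 0.52, 0.30 and 0.55. Aged HEP14 against young, 2 of the 13 mRNAs were called, beside 15.9% of all genes, and the median difference was 0.55 SD. For 9 of the 13 these libraries did not overlap, beside 33.2% of all genes, and 6 had an unadjusted p under 0.05 (limma). The called ones were mt-Co3, higher by 0.97 SD (adjusted p = 0.025), and mt-Nd3, at -1.17 SD (adjusted p = 0.0115), both named after their values were seen. No mRNA was called for HEP14 in adult ovaries, with 0 at an unadjusted p under 0.05 (limma). For 12 of the 13 the effect of HEP14 was lower in aged than in adult ovaries, beside 22.4% of all genes called lower for that difference.

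Likeness between genes was measured as the mean absolute difference in score over the 20 libraries. It was to be applied to Tfam and Ppargc1a and was applied to the analysed regulators instead, after their values were seen. Polrmt lay closest to Zfp653, at 0.11, and to Unc45a, at 0.11, followed by Arhgef1, Galt and Strada. Of all genes, 0.283% lay closer to Polrmt than mt-Cytb did, and over the 13 mRNAs this share ran from 0.283% to 25.5%. Over the 16 libraries outside the aged group, with scores set to mean 0 and SD 1 again, 1.82% of genes lay closer to Polrmt than mt-Cytb, and over the 13 mRNAs the share ran from 1.75% for mt-Nd4 to 61.2% for mt-Nd3. Between Polrmt and Esrra the mean difference was 0.24 over 20 libraries, with 3.17% of genes closer to Polrmt, and 25.1% were closer over the 16, where Irf2bp1 and Unc45a were the nearest genes. For Gabpa the nearest genes were Pcdh7, at 0.16, and Sacm1l, at 0.19, and 82% to 99.3% of genes were closer to it than the mitochondrial mRNAs, against 20.8% to 89.1% over the 16 libraries. Nrf1 lay nearest to Kctd15, at 0.24, and the share of genes closer to it than a mitochondrial mRNA ran from 0.147% for mt-Nd3 to 22.2% for mt-Nd4l. Over the 16 libraries that share ran from 6.75% for mt-Nd3 to 93.1% for mt-Co1. These are descriptions over libraries that share the stand-apart aged group.

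**Figure D4:**
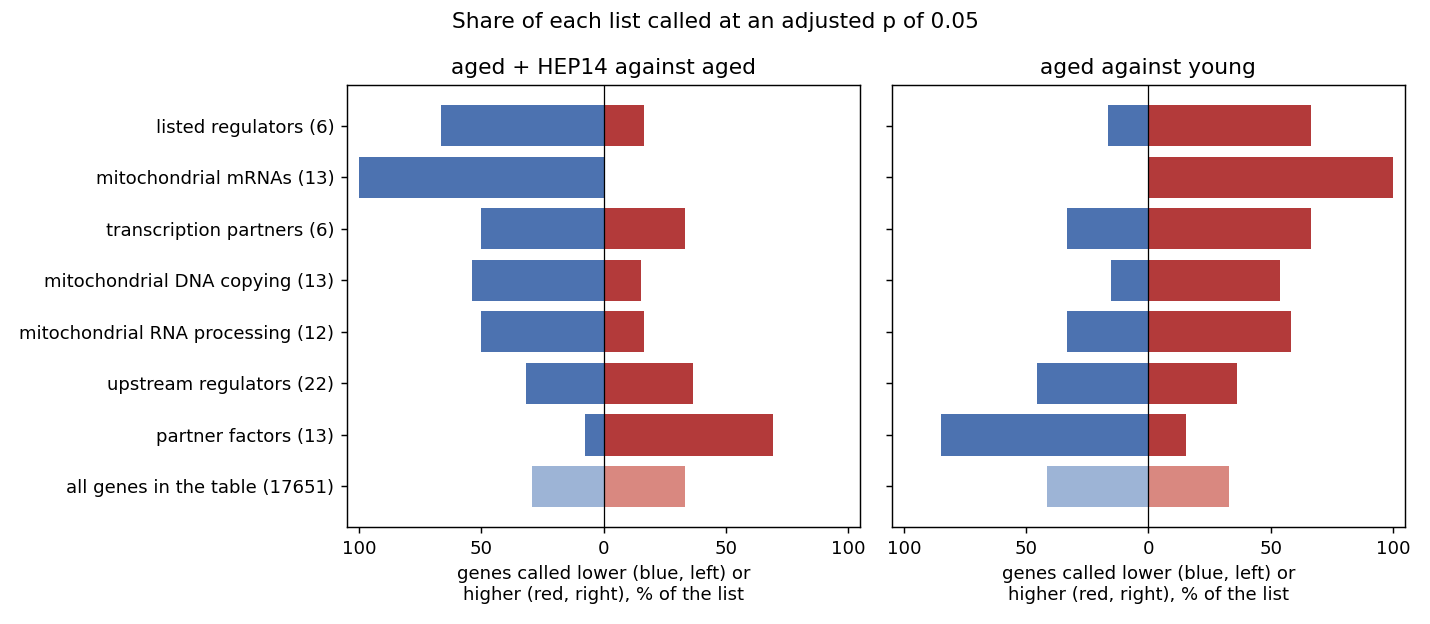
Share of each list called higher (red, to the right) or lower (blue, to the left) in 2 comparisons (x axis, % of the analysed genes of the list; rows, lists with their number of genes; paler bars, all 17651 genes). The 13 mitochondrial mRNAs are called in 1 direction in each comparison, and the partner factors, with 2 of 13 higher and 11 lower aged against young, lean the other way.

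The other genes of the programme were called in both directions. Of 76 listed, 66 were analysed, and 28 were called higher and 29 lower aged against young, with a median difference of 0.09 SD beside -0.41 SD over all genes. Equal library medians gave 30 higher and 24 lower. Aged HEP14 against aged, 23 were higher and 24 lower, and equal medians gave 18 and 27. Over all genes 74.3% were called aged against young, 33% higher and 41.3% lower, and 62.5% with HEP14, 33.2% higher and 29.3% lower.

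Partners of POLRMT split. All 6 analysed were called aged against young, 4 higher and 2 lower, beside 74.3% of all genes called. Mterf3, of the family of mitochondrial transcription termination factors, was higher by 2.79 SD (adjusted p = 1.64e-07, limma), and its difference with HEP14 was -1.97 SD. Tefm, the elongation factor of POLRMT, was lower, at -2.07 SD (adjusted p = 0.000497), and 1.90 SD higher with HEP14. Mterf1a, Mterf1b and Mterf2 were higher and Mterf4 was lower, at -2.07 SD, which was seen after the values were known.

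Of 13 genes for copying and upkeep of mitochondrial DNA, 7 were higher and 2 lower aged against young, and 2 were higher and 7 lower with HEP14. The shares called over all genes were 74.3% and 62.5% in these comparisons, so the numbers called are near that background. Ssbp1, which coats the single strand that Twinkle opens, was higher by 2.24 SD (adjusted p = 1.36e-06, limma) and differed by -2.24 SD with HEP14 (adjusted p = 3.62e-06). Lonp1, a protease of the matrix that degrades TFAM, was higher by 1.66 SD aged against young (adjusted p = 0.0187). Top1mt, the mitochondrial topoisomerase, differed by 0.85 SD aged against young (adjusted p = 0.0898) and was lower with HEP14, at -1.70 SD (adjusted p = 0.00272). Polg2, the accessory subunit of the DNA polymerase, differed by 0.27 SD and 0.88 SD, without passing in either comparison.

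Of 12 genes for processing mitochondrial RNA, 7 were higher and 4 lower aged against young, and 2 were higher and 6 lower with HEP14. Lrpprc, which stabilises mitochondrial mRNAs, was among the lower ones at -1.86 SD (adjusted p = 0.00282, limma), and was 1.43 SD higher with HEP14 (adjusted p = 0.0193). Its direction is opposite to that of the 13 mRNAs in both comparisons. Over all genes 74.3% were called aged against young and 62.5% with HEP14.

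Of 22 upstream regulators, 8 were higher and 10 lower aged against young, and 8 were higher and 7 lower with HEP14. These counts are near the shares over all genes, 33% higher and 41.3% lower aged against young and 33.2% higher and 29.3% lower with HEP14. Sirt1, a deacetylase that acts on PGC-1α, was at -1.82 SD aged against young (adjusted p = 0.00336, limma) and at 1.37 SD with HEP14 (adjusted p = 0.0242). Of the catalytic subunits of AMP-activated kinase, Prkaa2 was at -2.02 SD (adjusted p = 0.000326) and Prkaa1 at -1.02 SD (adjusted p = 0.0719). Among its other subunits, singled out after their values were seen, Prkab1 and Prkag1 were higher by 2.41 and 2.73 SD and Prkab2 was at -2.32 SD. Pprc1, a coactivator related to PGC-1, was at -1.33 SD (adjusted p = 0.046), and Nrip1, a corepressor of nuclear receptors needed for ovulation, at -1.97 SD (adjusted p = 0.00237). With HEP14 neither passed, Pprc1 at 0.91 SD (adjusted p = 0.181) and Nrip1 with an adjusted p of 0.054.

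Of 13 partner factors, 2 were higher and 11 lower aged against young, and 9 were higher and 1 lower with HEP14. Over all genes 41.3% were called lower aged against young and 33.2% higher with HEP14. GABP is built from an α subunit and a β subunit, and Gabpb1 was higher by 2.26 SD (adjusted p = 5.39e-05, limma) while Gabpa was lower. With HEP14 Gabpb1 was at -2.31 SD (adjusted p = 6.68e-05). Gabpb2, the other β subunit, was at -2.52 SD aged against young and 1.81 SD with HEP14, the direction of Gabpa, and was singled out after its values were seen.

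Yy1, a factor that works with PGC-1α on mitochondrial genes, was at -2.11 SD aged against young (adjusted p = 6.93e-05, limma) and 2.08 SD with HEP14 (adjusted p = 0.000119). Aged against young, the receptors related to ERRα went opposite to Esrra: Esrrb was at -2.78 SD (adjusted p = 2.6e-07) and Esrrg at -2.42 SD (adjusted p = 0.000102). Adult against young, Esrrb was already at -1.19 SD (adjusted p = 0.0192) and Esrrg at -1.43 SD (adjusted p = 0.0523), with Esrra at -0.05 SD. Aged against adult, Esrrb was at -1.58 SD (adjusted p = 0.000129) and Esrrg at -0.99 SD (adjusted p = 0.0627). All 4 aged libraries held Esrrb at its shared lowest value. Esrrb was still lower in aged HEP14 than in young ovaries, at -2.05 SD (adjusted p = 0.000434), after a difference of 0.73 SD aged HEP14 against aged (adjusted p = 0.041). Esrrg differed by 0.83 SD aged HEP14 against aged (adjusted p = 0.12).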

How the data were processed

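Per the labels' protocols, ovarian RNA was extracted with TRIzol and sequenced by Illumina NovaSeq. The submitters' processing notes name DESeq2 1.20.0, HISAT2 2.0.5 and featureCounts 1.5.0-p3, without their roles. The genome build is not given in the sources used here, nor are strand setting and depth. The authors deposited a single table of scores, in which each of 17651 genes has mean 0 and SD 1 over the 20 libraries. Because such scores are not counts, count models were not used. Gene symbols were matched from GENCODE M21 (GRCm38) for 17630 identifiers, and 21 stayed unnamed.

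All 20 libraries entered 1 limma 3.58.1 fit (R 4.3.3) with 1 coefficient per group, no filter and Benjamini-Hochberg adjustment within each comparison, with a threshold of 0.05. The fit was tested on simulated data for recovery of known aged-minus-young differences with the right sign. That check set no limit on false calls. Alternatives were fits on 2 groups, 1 variance per group, equal library medians, no genes with shared lowest values, no moderation, a replicate block and single libraries left out, and, chosen after seeing the data, aged libraries 1 and 2 left out together. The members, gene lists and tests were chosen with earlier results of these data known. Named genes were the members, 7 mitochondrial transcripts and 19 listed partners, of which Tfb1m, Mgme1 and Slirp were not analysed here. Promoter motifs were searched in RefSeq sequences for 9 of the 10 members, on both strands.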

Additional observations from a re-analysis of the deposited data

Results flagged for a closer look

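The effect of HEP14 differed between aged and adult ovaries for 4 regulators, by a test of the difference itself in limma. The effect in aged minus the effect in adult was -2.78 SD for Nrf1, -2.20 SD for Esrra, -2.00 SD for Polrmt and 2.04 SD for Gabpa. Of all genes 47.3% passed this test, 4389 upward (24.9% of all) and 3955 downward (22.4%). With the library medians set equal the split was 3178 upward and 4645 downward. No single library stood out by Dixon's test in the 35 groups of 4 libraries examined for the regulators and the mean of the mitochondrial mRNAs.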

How the results depend on the processing

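Of 660 recomputed values of single regulators, 618 kept their direction and side of the threshold, 17 lost a call, 9 gained one and 16 changed sign. Members called adult against young were 1 in fits on 2 groups and 1 with 1 variance per group. Mitochondrial mRNAs called adult against young were 7, 7 and 2 (fits on 2 groups, 1 variance per group, no moderation), and aged HEP14 against young 7, 8 and 5. Pathway genes called aged HEP14 against young were 20 and 27 under the first 2 of these. Leaving out 1 library each gave, for members, 4 to 5 aged against young, 5 to 6 aged against adult, 5 to 6 aged HEP14 against aged, 0 to 1 aged HEP14 against young and 4 to 5 for the difference of HEP14 effects. For mitochondrial mRNAs it gave 0 to 1 adult against young and 1 to 4 aged HEP14 against young, and for pathway genes 53 to 60, 45 to 49 and 5 to 10 aged against young, aged HEP14 against aged and aged HEP14 against young. Ppargc1b passed for the difference of HEP14 effects with 1 variance per group (adjusted p = 0.046, limma) and without aged library 3 (-2.14 SD), but was -0.77 SD without aged library 1 (adjusted p = 0.123), and Twnk without aged library 1 (-1.74 SD). With aged libraries 1 and 2 left out, Ppargc1b lost its calls aged against young (0.37 SD) and aged against adult (0.66 SD), and Twnk passed aged against young (0.93 SD, adjusted p = 0.0492). The cause was not tested.

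Signs that changed all belonged to differences that were not called. Without 1 library each, Twnk ranged from -0.041 (without aged library 2) to 1.75 SD aged against young, from -0.30 to 1.49 SD aged against adult, from -1.41 to 0.38 SD aged HEP14 against aged, from -0.053 to 0.58 SD adult against young and from -1.74 to 0.055 SD for the difference of HEP14 effects. Adult against young, Esrra ranged from -0.11 to 0.0055 SD and was 0.029 SD with equal medians, and Polrmt from -0.047 to 0.079 SD. Adult HEP14 against adult, Esrra ranged from -0.071 to 0.17 SD, Polrmt from -0.25 to 0.0045 SD and Gabpa from -0.39 to 0.017 SD. Gabpa aged HEP14 against young ranged from -0.25 to 0.15 SD.

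Libraries with the same number in different groups did not deviate together (correlations of -0.188 to 0.155), and not every library correlated best with its own number. These values gave no sign of pairing by number, but such correlations cannot exclude a pairing. A replicate block changed no call of a regulator and left 5 regulators called aged against young and 5 aged HEP14 against aged.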

Other observations

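Of the whole table, 11545 genes were matched to a RefSeq promoter, and calls aged against young were counted by motif. Among 884 genes with the NRF1 motif, 31.6% were called higher and 49% lower, beside 33.7% and 43.5% of all matched genes. Among 1468 genes with the GABP motif 37.7% were higher and 42.4% lower, and among 470 genes with the ERR motif 38.5% were higher and 37.4% lower. Within the third of promoters richest in G and C, genes with the NRF1 motif were 27.2% higher and 52% lower, and those without it 31.1% higher and 47.8% lower. Among promoters of middle G and C content, genes with the motif were 40.1% higher and 43.7% lower, and those without it 36.2% higher and 42.1% lower. Among those of the lowest content these shares were 28.7% and 49.1% with the motif, and 34.2% and 39.5% without it. Aged HEP14 against aged, genes with the NRF1 motif were 43.4% higher and 29.9% lower, beside 34.7% and 29.9% of all matched genes. With the GABP motif these shares were 37% and 34.5%, and with the ERR motif 28.5% and 33.6%. Among promoters richest in G and C they were 47.4% and 26.6% with the NRF1 motif, and 40.8% and 27.7% without it. At middle content they were 38% and 36.3% with it, and 32.9% and 32.8% without it. At the lowest content they were 39.8% and 27.8% with it, and 28.7% and 29.3% without it. These shares are descriptions, and no test was made on them.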
